A study of Mus musculus with 23 samples.

Results

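P3h4 and 9 other genes of collagen modification were examined in scrapings of the mouse small intestine. The 10 genes were chosen by name, with earlier results of the same arrays known: P3h4 for its lower level with quercetin, and Plod1, Plod2, Plod3, P4ha1, P4ha2, Lox, Loxl1, Loxl2 and Serpinh1 for their known roles. They are represented by 18 of the 55681 probes on the array. Of these, 12 probes in 8 genes passed the filter on dim spots that 29249 probes (21477 genes) passed in all.

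The scrapings came from adult male C57BL/6J mice. HF-Q mice (n = 11) received quercetin, a plant flavonol, at 0.33% of a high-fat diet by weight for 12 weeks. HF mice (n = 12) received the high-fat diet alone for the same 12 weeks, and both groups had 3 weeks on a normal-fat diet before it and a fast of 2 to 4 hours at the end. No genetic change is named for either group, and the labels give no age in weeks. There is 1 array per mouse. Its Cy5 signal was read against a Cy3 pool made from all mice, so every level is a log2 ratio to that pool and a positive difference means higher in HF-Q. In such bulk tissue, fewer cells of a type and less RNA per cell cannot be told apart.

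Fibrillar collagens are made mainly by fibroblasts and smooth muscle cells. In the endoplasmic reticulum, prolyl and lysyl hydroxylases modify the new chains while chaperones hold them for folding into a triple helix. Outside the cell, proteases trim the ends and lysyl oxidases start the cross-links between neighbouring molecules. P3h4, also called Sc65 or Leprel4, is an endoplasmic reticulum protein of the prolyl 3-hydroxylase family without known hydroxylase activity of its own, and in mouse skin and bone it forms a complex with P3h3, Plod1 and Ppib that acts on lysines of collagen.

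P3h4 has 2 probes on the array, both on the minus strand of chromosome 11 in build mm9. Stretches of 30 bases of each, read from the deposited array files, are shown because the 2 probes did not give the same difference between diets. Capitals in the first mark 10 letters that also close many copies of the mouse B1 repeat.
P3h4 brighter probe (bases 13 to 42 of 60, probe at chr11:100270063-100270122): ctgttgtaagACCCTGTCTCaaaataaaac
P3h4 dimmer probe (bases 1 to 30 of 60, probe at chr11:100269770-100269829): attgggcttagagctctgctgctcaataaa
Neither probe held an open reading frame over its whole length. The capital letters, ACCCTGTCTC, were searched on both strands and occurred in 29 of the 55681 probes (0.0521%), 20 on the probe strand and 9 on the opposite one. The longest run that the brighter probe shared with any probe of another gene was 23 bases, in a probe of Taf7l. The 8 probes of other genes that shared at least 15 bases with it included 7 that passed the filter, and their log2 differences ran from -0.128 to 0.022. Their correlations with P3h4 over mice, after taking off the diet means, ran from -0.339 to 0.199. These values describe the neighbours in sequence, and cross-hybridisation itself was not tested.

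By the brighter probe, P3h4 was at -0.452 to 0.230 (median -0.327) in HF-Q mice and at -0.171 to 0.633 (median 0.227) in HF mice. The groups overlapped, but 10 of 11 HF-Q mice had ratios under the median HF mouse. The means were -0.19 ± 0.25 (SD, n = 11) in HF-Q mice and 0.26 ± 0.26 (SD, n = 12) in HF mice, a log2 difference of -0.45 ± 0.10 (SE). Since P3h4 was chosen for this difference, it is a description and carries no test. The probe was well above background on all 23 arrays.

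The dimmer P3h4 probe gave a smaller difference. It was at -0.289 to 0.377 (median 0.045) in HF-Q mice and at -0.191 to 0.449 (median 0.240) in HF mice, a log2 difference of -0.13 ± 0.10 (SE). This probe was well above background on 4 of 11 HF-Q arrays and on 10 of 12 HF arrays, and the pool reached that level on 3 of 23. The probes correlated over the 23 mice at r = 0.530, and at 0.496 after the diet means were taken off. With the brighter probe, the difference lay below 0 on each of the 3 slides, at -0.25, -0.33 and -0.78. It was smallest on the first slide, which holds HF-Q mouse 3, the mouse with the highest P3h4 ratio of its diet. The part of that mouse in the spread between slides was not tested. By the brighter probe HF mice 1 to 4 held the highest HF ratios, at 0.436 to 0.633, and the other HF mice reached at most 0.347. HF-Q mice 1 to 4 spanned the range of their diet, -0.452 to 0.230. A relation of the difference to the replicate number was not tested.

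**Figure D1:**
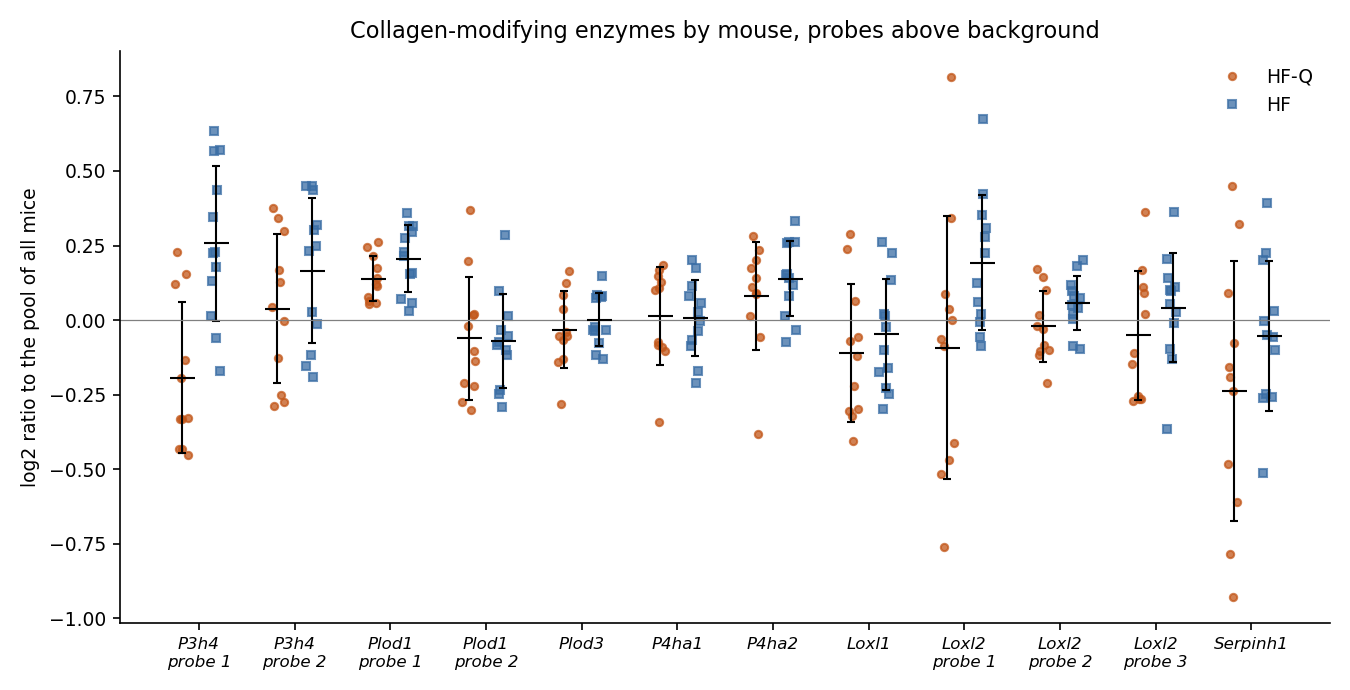
Log2 ratio to the pool of all mice for the 12 probes of collagen-modifying genes that passed the filter, 1 point per mouse, with HF-Q (circles) left of HF (squares) and bars at the mean ± SD (n = 11 HF-Q, n = 12 HF); probe 1 is the brightest of its gene. The brighter P3h4 probe has means of -0.19 in HF-Q and 0.26 in HF mice, while Loxl2 and Serpinh1 have the widest spread among HF-Q mice.

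Plod1, the lysyl hydroxylase found in the P3h4 complex, was at 0.053 to 0.261 (median 0.121) in HF-Q mice and at 0.031 to 0.360 (median 0.221) in HF mice. The log2 difference was -0.07 ± 0.04 (SE), and 9 of 11 HF-Q mice had ratios under the median HF mouse. A further Plod1 probe gave 0.01 ± 0.07 and did not follow the brightest one over mice (r = -0.067). For the other partners of the complex, P3h3 differed by 0.03 ± 0.08 and Ppib, the isomerase cyclophilin B, by 0.07 ± 0.04. Over deviations from the diet means, P3h4 correlated with Plod1 at 0.453, with Ppib at 0.346, with P3h3 at -0.008 and with P3h1, a prolyl 3-hydroxylase of another complex, at -0.534. By this measure 7.98% of the 15145 named genes correlated with P3h4 more highly than Plod1 did. Plod1 itself correlated at 0.524 with the mean of 8 pancreatic acinar genes, all 8 of which were lower in HF-Q by their means (median -0.55). That mean ran from -3.31 to 2.24 in HF-Q mice and from -3.27 to 1.77 in HF mice, it correlated with P3h4 at 0.150, and its part in these values was not tested.

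Plod3, which both hydroxylates lysines and adds sugars to them, differed by -0.03 ± 0.05 (SE). Its range was -0.281 to 0.166 in HF-Q mice and -0.131 to 0.149 in HF mice. The subunits of prolyl 4-hydroxylase, which gives the triple helix its heat stability, were close between diets, with P4ha1 at 0.01 ± 0.06 and P4ha2 at -0.06 ± 0.06. P4ha1 was well above background on 4 HF-Q and 6 HF arrays. Plod2, the lysyl hydroxylase of the telopeptides, was well above background on 0 of 23 arrays, so its level is not known beyond that bound.

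Of the lysyl oxidases, Lox itself was well above background on 0 arrays by either of its probes. Loxl1, known for its role in elastic fibres, was above it on 4 HF-Q and 8 HF arrays and differed by -0.06 ± 0.08 (SE). Loxl2, which cross-links collagen IV and fibrillar collagens, was at -0.761 to 0.816 (median -0.062) in HF-Q mice and at -0.089 to 0.673 (median 0.176) in HF mice by its brightest probe. The difference was -0.29 ± 0.14, and HF-Q mice held both the lowest and the highest ratio. Serpinh1, or HSP47, the collagen-specific chaperone of the endoplasmic reticulum, was at -0.928 to 0.451 (median -0.191) in HF-Q mice and at -0.512 to 0.394 (median -0.053) in HF mice, a difference of -0.18 ± 0.14. In both genes the spread among HF-Q mice exceeded the difference between the means.

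Loxl2 has 3 probes on chromosome 14 of mm9, plus strand, and they are shown because they ranked the mice differently. The 2 given whole each hold an open reading frame over their length, and the brightest does not.
Loxl2 brightest probe (bases 1 to 30 of 60, probe at chr14:70095254-70095313): caccaaaggcttcgggactcctgtgtgtag
Loxl2 probe 2 (chr14:70090017-70090076): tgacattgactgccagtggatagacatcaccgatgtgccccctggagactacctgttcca
Loxl2 probe 3 (chr14:70092141-70092200): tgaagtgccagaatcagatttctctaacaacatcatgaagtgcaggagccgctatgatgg
Probes 2 and 3 differed between diets by -0.08 ± 0.05 and -0.09 ± 0.08 (SE). Over the 23 mice the brightest probe correlated with probe 2 at r = 0.434 and with probe 3 at 0.052, and probes 2 and 3 correlated at 0.344. A statement about Loxl2 from the brightest probe is therefore not one about all 3.

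Among all genes, 0 of 21477 (0%) passed limma's test between diets at an adjusted p of 0.05, and 971 (4.52%) had an unadjusted p below 0.05. The smallest adjusted p was 0.951. Of the 8 measured members, 0 were called, 7 were lower in HF-Q and their median difference was -0.06, against 52.0% of all genes lower and a median of -0.00382 over all. Nothing is read from that count: P3h4 was chosen for being lower, and Loxl1, like P4ha1, passed the filter through HF arrays only.

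The relation of each gene to collagen transcripts was measured next. The collagen score of a mouse was the mean log2 ratio of Col1a1, Col1a2, Col3a1 and Col5a1, which encode interstitial collagens. Col5a2, also listed, was above background on 0 arrays and left out. The score was -1.05 to 0.442 (median -0.130) in HF-Q mice and -0.151 to 0.508 (median 0.112) in HF mice. A group of 3 HF-Q mice stood apart, each on another slide, at -1.05, -0.891 and -0.594. These were HF-Q mice 3, 2 and 1 by replicate number, and the next lowest was HF-Q mouse 4 at -0.242. In HF mice too the score was lower at low replicate numbers, at -0.151 to 0.132 in mice 1 to 4. It was 0.188 to 0.508 in HF mice 9 to 12. Means of markers of other cell types moved with the score over the 23 mice, at r = 0.918 for 8 measured fibroblast genes, 0.901 for 7 endothelial genes and 0.818 for 10 smooth muscle genes, of 9, 8 and 10 listed. Single genes did not all follow. In the fit given below, 5 fibroblast, 5 endothelial and 9 smooth muscle genes had a called positive slope, against 13.0% of all genes. Endothelial Kdr had a called negative slope (-0.32, limma adjusted p = 0.048). Mylk and Fbln1 had negative slopes that were not called. The fibroblast mean ran from -0.313 to 0.299 in HF-Q mice and from -0.0566 to 0.370 in HF mice. The endothelial mean ran from -0.458 to 0.208 in HF-Q and from -0.156 to 0.380 in HF mice, and the smooth muscle mean from -1.36 to 0.799 in HF-Q and from -0.725 to 1.07 in HF mice. All 8, 7 and 10 of these genes were lower in HF-Q by their means, against 52.0% of all genes. Mfap5, in both fibroblast counts, was well above background on 5 HF-Q and 11 HF arrays. It passed the filter through HF arrays only, so nothing is read from its place in them. The part of these cell types in the results below was not tested beyond the fits named there.

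In a limma fit of diet and collagen score together, 4341 of 21477 genes (20.2%) were called at an adjusted p of 0.05, 2802 (13.0%) of them with a positive slope. The 8 measured members split: 4 were called, all positive, and 4 were not. Serpinh1 had the steepest slope of them, 0.85 ± 0.09 (SE) log2 per log2 of the score (adjusted p = 2.14e-07 by limma). Loxl2 followed with 0.71 ± 0.12 (adjusted p = 3.68e-04), then Loxl1 with 0.33 ± 0.10 (adjusted p = 0.021) and Plod3 with 0.20 ± 0.06 (adjusted p = 0.013). Loxl1 was well above background on 4 of 11 HF-Q and 8 of 12 HF arrays. It passed the filter through HF arrays only, so nothing is read from its call. The other Loxl2 probes had slopes of 0.10 and 0.15 (limma adjusted p over probes 0.294 and 0.355), and the mean of the 3 probes had 0.32 (adjusted p = 6.32e-04).

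P3h4 was not among the genes called with the collagen score. Its slope was -0.09 ± 0.14 (limma adjusted p = 0.681), with P4ha1 at 0.00 ± 0.09 (adjusted p = 0.979), Plod1 at 0.03 ± 0.06 (adjusted p = 0.719) and P4ha2 at 0.17 ± 0.08 (adjusted p = 0.157). A p that misses the threshold does not show a slope of 0: the 95% interval for P3h4 ran from -0.384 to 0.204. The dimmer P3h4 probe gave 0.12 ± 0.14 (adjusted p over probes 0.564). Without HF-Q mouse 3, which had the lowest collagen score and the highest P3h4 ratio of its diet, the slope was 0.07. The interval for Serpinh1 was 0.673 to 1.03.

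**Figure D2:**
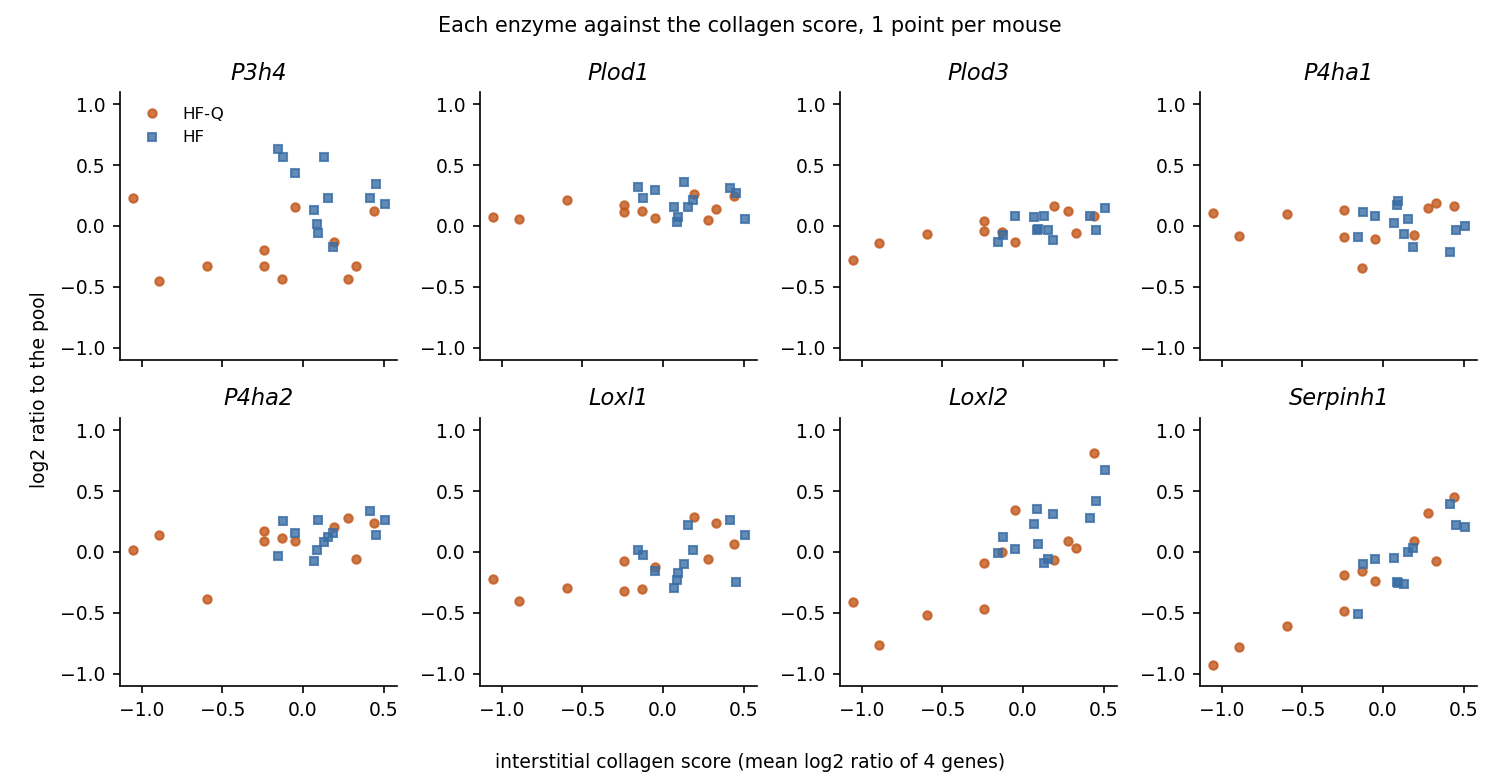
Log2 ratio of each of the 8 measured genes (vertical) against the interstitial collagen score (horizontal, mean log2 ratio of 4 collagen genes), 1 point per mouse, HF-Q as circles and HF as squares. Serpinh1 and the brightest Loxl2 probe rise with the score across both diets (r = 0.909 and 0.813). P3h4 shows no such line (r = 0.190 with diets pooled, -0.132 over deviations from the diet means).

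Correlations over the 23 mice were computed for 13 probes and genes in all, with permutation tests of 100000 resamples (two-sided); these p-values are not adjusted, and the adjusted p-values above stand for the family of all genes. Serpinh1 correlated with the score at r = 0.909 and rho = 0.854 (permutation p = 1e-05 for both, the smallest possible). After the diet means were taken off, r was 0.911, and without the 2 mice farthest from the median score it was 0.861. Within slides r was 0.928, 0.920 and 0.875 (n = 8, 7 and 8). By its brightest probe Loxl2 gave r = 0.813 and rho = 0.716 (permutation p = 1e-05 and 1.6e-04), 0.776 over deviations and 0.734 without the 2 mice. Its values within slides were 0.792, 0.860 and 0.843. Over the same deviations Loxl2 correlated with the endothelial mean at 0.881 and with the mean of 10 enterocyte genes at -0.567, and their part in its relation to collagen was not tested. For Serpinh1 and the brightest Loxl2 probe the relation was present on every slide and within both diets. In HF-Q and HF mice r was 0.948 and 0.805 for Serpinh1, and 0.795 and 0.709 for that Loxl2 probe. Loxl2 probe 2, nearly as bright (mean log2 signal 8.48 against 8.50), gave 0.546 in HF-Q and -0.166 in HF mice. Probe 3 gave 0.276 and 0.327. Over deviations without the 2 farthest mice, probes 2 and 3 gave 0.035 and 0.033. The score also rose with the replicate number of the mice within both diets. With that number as a block 0 members were called. In fits to HF-Q mice alone 3 of 8 members and 2302 of 21477 genes were called. In fits to HF mice alone 0 members and 63 genes were called, with Serpinh1 at a slope of 0.94 (limma adjusted p = 0.0833) and Loxl2 at 0.75 (adjusted p = 0.138). The difference between diets in slope was not tested.

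For P3h4, r was 0.190 and rho 0.124 over the 23 mice (permutation p = 0.387 and 0.572), and -0.132 and -0.091 over deviations from the diet means (permutation p = 0.555 and 0.685). Values with both diets pooled hold the difference that P3h4 was chosen for, and nothing is read from them. Without the 2 farthest mice the value over deviations was -0.042. Within slides, where both diets are pooled, r was 0.086, 0.486 and 0.108, and within diets it was -0.038 in HF-Q mice and -0.358 in HF mice. The P3h4 slope was called in 0 of 24 alternatives. Plod3 gave r = 0.681 and rho = 0.627 (permutation p = 2.4e-04 and 0.00184), which fell to 0.464 without the 2 farthest mice. Loxl1 gave 0.594 and 0.627 (permutation p = 0.00228 and 0.00165), and 0.547 without them. Because Loxl1 passed the filter through HF arrays only, nothing is read from its values here.

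Leaving out the 3 HF-Q mice with low collagen scores changed the differences between diets unequally. Without them the P3h4 difference was -0.45, as with them. Serpinh1 then differed by 0.02 in place of -0.18, and Loxl2 by -0.11 in place of -0.29. The count of members lower in HF-Q was then 4 of 8. These mice were picked for low scores and all were in HF-Q. Without them, genes that rise with the score move up in HF-Q by that choice. The unequal changes therefore restate the slopes and are no further result. Without these 3 mice the slopes of Serpinh1 and of the brightest Loxl2 probe were 0.95 and 0.82 (limma adjusted p = 0.00107 and 0.0313). Loxl1 and Plod3 were no longer called (adjusted p = 0.163 and 0.294), and 837 genes were called in all. With the smooth muscle score as a further covariate only Serpinh1 of the members stayed called (adjusted p = 0.0176), and with the fibroblast score none did (adjusted p at least 0.322), with 128 and 29 genes called among all.

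Other collagen genes were examined in the same fits. All 4 genes of the score were lower in HF-Q by their means, with Col1a1 at -0.37 ± 0.17 (SE), Col1a2 at -0.37 ± 0.16, Col3a1 at -0.32 ± 0.19 and Col5a1 at -0.25 ± 0.10, and none was called. The 3 HF-Q mice of low collagen score had the lowest ratios of all mice for each of the 4 genes. For Col1a1 these were -1.21, -1.04 and -0.707. The differences of collagen genes without these mice were not computed. Of 13 other collagen genes 11 were measured, and all 11 had negative differences (median -0.26), against 52.0% of all genes. A called positive slope on the score was found for 9 of the 11, against 13.0% of all genes. Examples are Col6a3, a chain of the beaded-filament collagen, with a slope of 1.14 ± 0.05 (limma adjusted p = 5.50e-13), and Col4a1 of basement membranes with 1.23 ± 0.06 (adjusted p = 3.47e-12). Col5a3 and Col7a1, the anchoring fibril collagen, were not called, at 0.25 ± 0.10 and 0.13 ± 0.15 (adjusted p = 0.066 and 0.567).

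Of 23 further genes of collagen processing, 17 were measured, 12 lower and 5 higher in HF-Q, and 0 were called between diets. Of all genes, 52.0% were lower in HF-Q. Loxl3, among the 12 lower, was well above background on 3 HF-Q and 8 HF arrays. It passed the filter through HF arrays only, so nothing is read from its direction. On the collagen score 8 of the 17 had a called positive slope, a direction called in 13.0% of all genes. A called negative slope was found for 1, a direction called in 7.17% of all genes. The steepest were Sparc, a collagen-binding matrix protein, at 1.00 ± 0.07 (limma adjusted p = 4.22e-10), Pcolce, the enhancer of the C-terminal protease, at 0.78 ± 0.06 (adjusted p = 3.65e-09), and Fkbp10 at 0.77 ± 0.07 (adjusted p = 2.07e-08). Crtap, a partner in prolyl 3-hydroxylation, had 0.53 ± 0.07, and the N-terminal proteases Adamts14 and Adamts2 had 0.49 ± 0.08 and 0.35 ± 0.09. P3h3, the partner of P3h4, was also called, at 0.40 ± 0.09 (adjusted p = 0.00254), as was Creb3l1, a transcription factor that acts on Col1a1 in mouse osteoblasts, at 0.28 ± 0.08. P4ha3, a further prolyl 4-hydroxylase subunit, ran the other way at -0.25 ± 0.07 (adjusted p = 0.017). Ppib and P3h1 were not called, at -0.04 ± 0.05 and 0.07 ± 0.09. Of the genes of the P3h4 complex, P3h3 was called, and P3h4, Plod1 and Ppib were not.

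**Figure D3:**
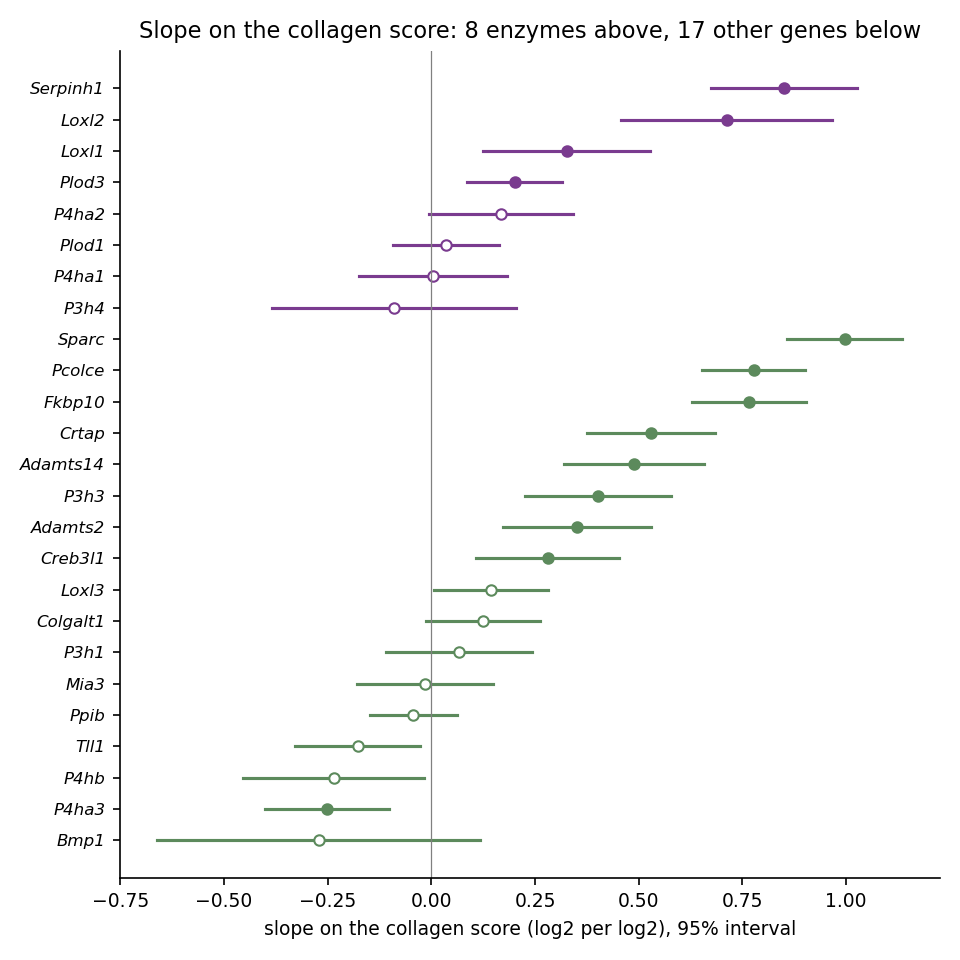
Slope of each measured gene on the interstitial collagen score (horizontal, log2 per log2) from the fit with diet as a term, with 95% intervals; the 8 chosen genes stand above and the 17 other processing genes below, and filled points mark an adjusted p under 0.05. Serpinh1 (0.85) and Loxl2 (0.71) lie among the steepest, and P3h4 (-0.09) has an interval that spans 0.

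Fkbp10, an endoplasmic reticulum isomerase that assists lysyl hydroxylation in collagen telopeptides, is the neighbour of P3h4 on chromosome 11 in the RefSeq table of GRCm38.p6. It was at a mean of -0.19 in HF-Q mice and 0.12 in HF mice, a log2 difference of -0.32 ± 0.12 (SE). Although both neighbours were lower in HF-Q by their means, they did not vary together within diets, with r = -0.012 over deviations. Fkbp10 correlated with the collagen score at r = 0.950 and rho = 0.908 (permutation p = 1e-05 for both, the smallest possible), and at 0.893 over deviations without the 2 farthest mice. Without the 3 HF-Q mice of low collagen score, Fkbp10 differed by -0.13 and P3h4 by -0.45. Those mice were picked by the score that Fkbp10 follows, so nothing is read from this contrast.

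**Figure D4:**
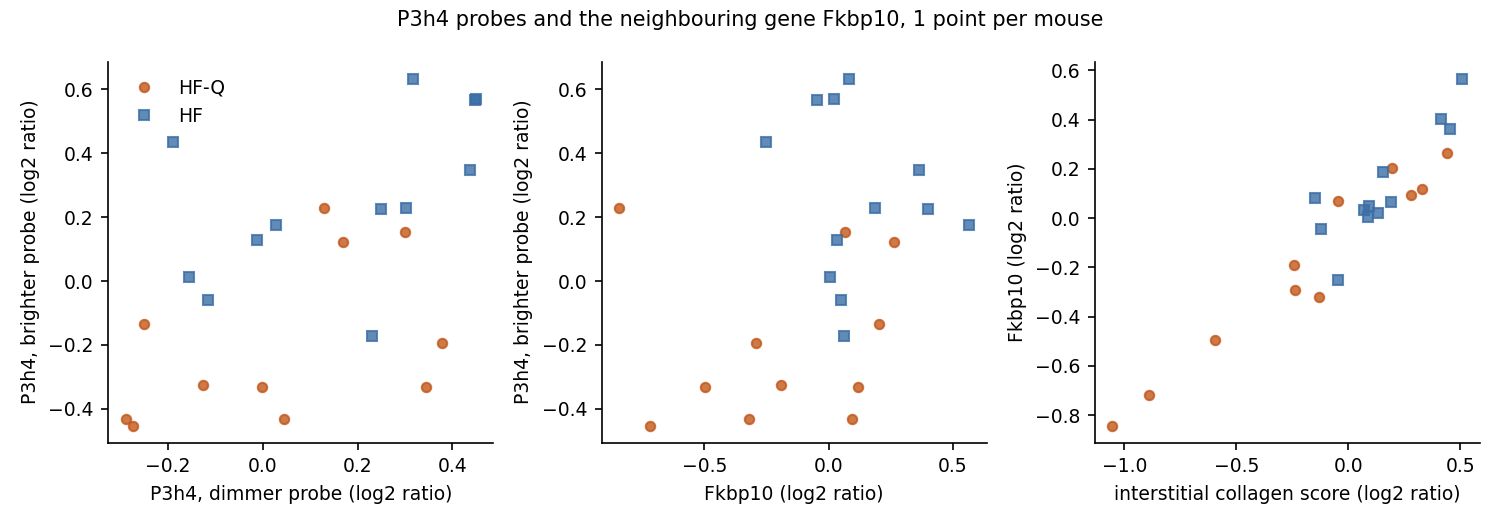
Log2 ratios to the pool, 1 point per mouse, HF-Q as circles and HF as squares: the brighter P3h4 probe against the dimmer one (left), the brighter P3h4 probe against Fkbp10 (middle) and Fkbp10 against the interstitial collagen score (right). Fkbp10 lies along a line with the score (r = 0.950), and P3h4 does not lie along one with Fkbp10 (r = -0.012 over deviations from the diet means).

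The named genes most like P3h4 were found by Pearson r over the deviations of the 23 mice from their diet means, among 15145 genes, as a description with no test. The highest were Misp3 (0.885), Cryz, a quinone reductase (0.883), Otop2, a proton channel (0.877), Shisa2 (0.845) and Kcnu1, a potassium channel (0.845). Their own differences between diets were -0.39 ± 0.16 for Cryz and between -0.18 and -0.06 for the other 4. The lowest were Cd274, which encodes the checkpoint ligand PD-L1 (-0.870), Rab8b, a small GTPase (-0.837), Ppm1h, a phosphatase (-0.831), Il18bp, which binds interleukin 18 (-0.831), and Zbp1, a sensor of nucleic acids (-0.830). Il18bp and Zbp1 were at 0.44 ± 0.21 and 0.44 ± 0.23 between diets, and Cd274 at 0.20 ± 0.10. No collagen gene of the score came near these values: their correlations with P3h4 ran from -0.194 to -0.0115. The protease gene Bmp1 had the highest value among the processing genes, at 0.656.

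Series-wide checks were few. Cy5 signal was well above background for 48.6% to 56.6% of probes per array. All 10 enterocyte markers were above background on all 23 arrays. One protocol field names liver as the source of RNA, whereas 4 of 6 hepatocyte markers did not pass the filter: Ahsg and Mup3 cleared background on 0 of 23 arrays, and Fgb and Hpx on 2. Alb cleared it on 11 arrays and Apoh on 23. The mean of the 2 that passed the filter, Alb and Apoh, correlated with P3h4 at 0.604 over deviations, and that of 3 of 5 adipocyte genes at 0.447. The hepatocyte mean ran from -0.106 to 0.227 in HF-Q mice and from -0.144 to 0.230 in HF mice, and the adipocyte mean from -0.342 to 0.503 in HF-Q and from -0.265 to 0.537 in HF mice. Their part in the P3h4 values was not tested.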

How the data were processed

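Two-colour arrays were used, 1 per mouse. The deposited spot and background values are intensity on a linear scale. Agilent Feature Extraction 10.7.3.1 read them, per the submitters' processing notes. The log10 ratio (Cy5 over Cy3) that the authors deposited in the same files, and a deposited table of log2 values for 31718 spots (29141 probes, each column's median 9.11), served as alternatives. No source used here says how the authors centred that log2 table. Across genes (not independent replicates), its deviations from gene means correlated with the present ratios at 0.863 to 0.961, so its direction is that of Cy5.

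Values were computed in R 4.3.3 with limma 3.58.1. Normexp (offset 50) corrected the background, and loess with 3671 control spots at weight 0 normalized each array. Outlier spots (574 to 728 per array) were dropped, and a probe's spots were averaged. The filter required a Cy5 signal well above background in 50% or more of HF-Q or of HF arrays, which 52.5% of probes met. The brightest probe stood for a gene. Tests used lmFit and eBayes, two-sided, with Benjamini-Hochberg adjustment over all 21477 genes and a threshold of 0.05. The fits were tested on simulated data. The number of arrays limits the precision, and each array is 1 mouse. Slide and scan coincide, with 4, 3 and 4 HF-Q and 4, 4 and 4 HF arrays on the 3 slides. Dyes were not swapped, so a dye effect common to all arrays cancels between diets.

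The members, gene lists and collagen score were chosen with earlier results of these data known. Named genes were all members with every probe, listed collagen and processing genes given by counts and examples, and the 5 genes most and least correlated with P3h4. Names came from RefSeq (GRCm38.p6) by accession for 27235 probes, symbol for 3581 and synonym for 565, and 24300 kept the file's name. Probe positions are those of the files (mm9). Alternatives covered background, normalization, filter, probe choice, slide, replicate number, score and covariates.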

Additional observations from a re-analysis of the deposited data

How the results depend on the processing

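No gene was called between HF-Q and HF by limma under any of 16 alternatives. The P3h4 difference was below 0 in all 19 alternatives and ran from -0.49 to -0.42 when 1 mouse at a time was left out. It moved most within the third slide (-0.78) and with the dimmer probe (-0.13, an alternative added after seeing the data, as was leaving out the 3 low-collagen mice). Since P3h4 was chosen for this difference on the same arrays, its sign in these refits is a description and no test. The dimmer probe passed the filter through HF arrays only. The count of members lower in HF-Q was 3 with the fibroblast score as a covariate and 4 without the 3 low-collagen mice.

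The P3h4 slope was never called (adjusted p 0.379 to 0.999 over all refits) and its sign was not settled. It was 0.0896 with median centring, 0.0139 with the mean of its probes, 0.17 within the second slide, 0.16 without the diet term and 0.12 with the dimmer probe, and ran from -0.195 to 0.0653 when 1 mouse at a time was left out. With the replicate number as a block it was 0.34, with 34 genes and 0 members called. The replicate numbers showed no clear pairing of the mice: 5 of 11 same-numbered pairs correlated above 0.1 over genes (lowest -0.347, highest 0.394). The block is therefore given only as an alternative. The collagen score nevertheless rose with the replicate number in both diets. It was -1.05 to -0.242 in HF-Q mice 1 to 4 and 0.194 to 0.442 in HF-Q mice 8 to 11. In HF mice 1 to 4 it was -0.151 to 0.132, and in HF mice 9 to 12 it was 0.188 to 0.508. What lies behind this order was not tested. With the block, 0 genes were called between diets and P3h4 differed by -0.46.

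The count of genes called with the collagen score was 2769 without the diet term, 837 without the 3 mice, 128 with the smooth muscle score and 29 with the fibroblast score as covariates. Members called were then 4, 2, 1 and 0. Within HF-Q mice alone it was 2302, with 3 members, and within HF mice alone 63, with 0 members (both gene counts added after seeing the data). The cause was not tested. Slopes of genes not called also changed sign: Plod1 to -0.0186 (mean of probes) and -0.0803 (within HF mice), P4ha1 to -0.00695 (slide block), -0.23 (within HF mice), -0.0920 (smooth muscle covariate), -0.0884 (fibroblast covariate) and -0.00260 (Col1a1 as the score), P3h1 to -0.0397 (the authors' log2 table), -0.0241 (replicate block) and -0.21 (fibroblast covariate), and Ppib to 0.11 (median centring). With the fibroblast covariate P4ha3 went to 0.14 and Creb3l1 to -0.23, neither of them called. The slope of Loxl1, above background on 12 of 23 arrays, was 1.19 with the authors' log10 ratio.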
